A study of Mus musculus with 8 samples.

Results

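Claudins and their partners seal and hold together epithelial sheets, and 10 such genes were followed across mouse embryonic stem cell lines that differed at Gtf2i or at Hprt. The members were the tight junction claudins Cldn3, Cldn4, Cldn6 and Cldn7, the tight junction protein genes Ocln and Tjp1, the adherens junction cadherin Cdh1, the adhesion molecule Epcam, and the desmosome genes Dsp and Pkp2. They were picked by name as every probe set, a group of short probes for a transcript, whose only listed gene symbol was that of a member. This gave 20 of the 34945 probe sets with a single symbol, and 10 of 18193 genes. The study measured total RNA on 8 Affymetrix arrays in 4 groups of 2. The wild-type group had no mutation in its label and its parent line was not named. The exon 2 mutant, titled Gtf2i Mutant line, came from gene targeting in R1 cells and had the genotype Δexon2/+, so that an intact copy of Gtf2i remained. The HPRTKO group was labelled HPRT -/-. The trap group, titled GTF2iTrap line, was derived by gene trapping from AB2.2 cells and was labelled HPRT -/-:GTF2I +/-. Its Hprt genotype was thus labelled as in the HPRTKO group, and no label states that the allele is the same. Every line was kept on a feeder monolayer in medium with leukaemia inhibitory factor and serum replacement. Each group rests on a line of its own, so the mutation, the line and the amount of feeder material cannot be told apart, and since no label states that the 2 arrays of a group were separate cultures, the p-values reflect array-to-array spread, which may be technical.

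Tight junctions form where the extracellular loops of claudins on neighbouring cells meet, and different claudins make the seal tighter or more permeable to particular ions. Occludin, the product of Ocln, spans the membrane beside them, and ZO-1, the product of Tjp1, ties both to actin. E-cadherin, encoded by Cdh1, joins cells below the tight junction, and desmosomes anchor keratin filaments through desmoplakin (Dsp) and plakophilins such as Pkp2. Mouse embryonic stem cells are epithelial in character: they grow as compact colonies held by E-cadherin and carry Epcam, whereas fibroblasts lack both and express Snail and Zeb factors, which repress Cdh1 and other epithelial genes through E-boxes. Cldn3 and Cldn4 are also genes of the region whose human counterpart is deleted in Williams-Beuren syndrome, as is Gtf2i. In the RefSeq gene order of mouse chromosome 5, Cldn3 and Cldn4 were direct neighbours, with 11 protein-coding genes between Cldn4 and Gtf2i.

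Stem cell markers were present throughout. All 10 stem cell markers, among them Pou5f1, Nanog and Sox2, lay above the filter level, here the 40th percentile of an array (mean log2 5.35), on every array. The HPRTKO arrays stood apart in feeder signal. The summed linear intensity of 20 fibroblast markers was 144610 and 145290 on the wild-type arrays, 109960 and 111650 in the exon 2 mutant, 122860 and 123730 in the trap line, and 9689 and 9580 in HPRTKO. Lum alone among them fell below the filter level on both HPRTKO arrays. Hprt read 10.02 to 10.05 in HPRTKO, 10.72 and 10.76 in the trap line and 12.08 to 12.25 in the groups labelled intact, all in log2 units. Gtf2i read 10.10 and 10.14 in wild-type, 10.45 and 10.51 in the exon 2 mutant, 10.11 and 10.07 in the trap line and 10.92 and 10.89 in HPRTKO. The exon 2 mutant thus lay above wild-type and the trap line beside it. Where these probes lie relative to exon 2 or the trap was not analysed here, so they do not check the labels. Within groups, arrays correlated at 0.997 to 0.998 across 13819 genes. With 2 arrays a group, their number limits the precision, and in such bulk RNA fewer cells of a type and less RNA per cell cannot be told apart.

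Promoters were read from RefSeq for the members with an entry (8 of 10, GRCm38.p6) because the repressors named above bind the E-box CAGGTG, which reads CACCTG on the other strand. The claudins with the widest range between groups and a single entry are shown over the 250 bases before the start of transcription, 5′ to 3′, with the E-box in capitals. They are Cldn4 at chr5:134946935-134947184 on the minus strand and Cldn6 at chr17:23679115-23679364 on the plus strand.
Cldn4: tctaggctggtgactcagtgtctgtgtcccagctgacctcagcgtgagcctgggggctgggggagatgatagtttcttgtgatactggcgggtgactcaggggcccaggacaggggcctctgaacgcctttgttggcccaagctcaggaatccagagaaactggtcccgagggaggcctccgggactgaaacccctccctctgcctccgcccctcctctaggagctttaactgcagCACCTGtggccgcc
Cldn6: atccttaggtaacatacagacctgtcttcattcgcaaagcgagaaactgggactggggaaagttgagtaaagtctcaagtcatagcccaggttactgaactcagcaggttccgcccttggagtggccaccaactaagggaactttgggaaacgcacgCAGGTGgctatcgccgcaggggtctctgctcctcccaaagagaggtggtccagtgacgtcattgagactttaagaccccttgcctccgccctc

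E-boxes of this form stood in the 250 bases of 5 of these 8 genes (Cldn4, Cldn6, Cldn7, Epcam and Ocln), or 5 of their 10 entries, against 17.2% of the 32851 entries of the table. Cldn3, Tjp1 and Dsp had no match there, and Cldn7 and Ocln had theirs in only 1 of 2 entries. Cdh1 and Pkp2 had no entry and were not searched. The share of G and C letters ran from 51.2% to 72.4% in the members' entries, beside a median of 52.4% over all entries. Its part in the matches was not tested. The other sites are shown in windows of 30 bases, to compare their surroundings, at chr11:69965312-69965341 and chr11:69965352-69965381 (plus strand, Cldn7), chr13:100552694-100552723 and chr13:100552549-100552578 (minus strand, Ocln), and chr17:87635780-87635809 and chr17:87635948-87635977 (plus strand, Epcam).
Cldn7, first site: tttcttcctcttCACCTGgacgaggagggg
Cldn7, second site: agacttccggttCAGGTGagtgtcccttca
Ocln, first site: ccatcggagtttCAGGTGaatgggtcaccg
Ocln, second site: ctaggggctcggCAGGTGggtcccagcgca
Epcam, first site: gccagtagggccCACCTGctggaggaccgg
Epcam, second site: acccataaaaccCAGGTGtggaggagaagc
These are matches of letters and show no binding. The motif AACCNGTT of grainyhead-like factors, which activate epithelial genes, was searched on both strands too. It was found in none of the 10 entries and in 1.79% of all.

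Across the 4 groups every member was highest in HPRTKO. Both HPRTKO arrays lay above the other 6 arrays for 10 of 10 members, where 35.6% of the 13819 genes tested did so. Both wild-type arrays lay below the other 6 for 4 members (Cldn4, Cldn7, Cdh1 and Dsp), against 24.3% of all genes. The difference between the highest and lowest group mean ran from log2 0.42 for Tjp1 to 3.24 for Cldn4. The exon 2 mutant arrays were the lowest for Pkp2 (10.1% of genes) and the trap arrays for Tjp1 (9.98%). The order of the other 3 groups was not shared: Cldn4 was higher in the trap line than in the exon 2 mutant, while Cldn7, Cdh1, Epcam, Ocln, Tjp1 and Dsp were higher in the exon 2 mutant.

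**Figure D1:**
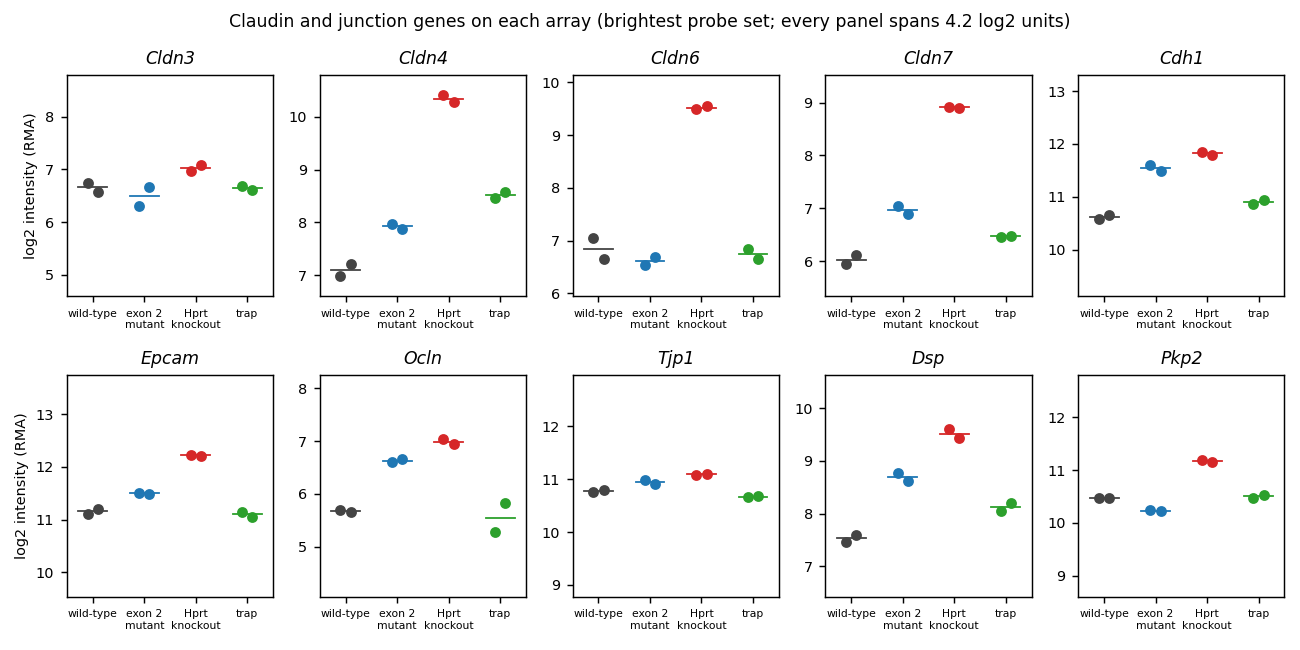
Log2 RMA intensity of the brightest probe set of each member (vertical axis) on both arrays of the wild-type, exon 2 mutant, Hprt knockout (HPRTKO) and trap groups; points are arrays, lines are group means, and every panel has the same height in log2 units. The HPRTKO points are the highest in all 10 panels, by 1.82 to 2.68 over the next group in Cldn4, Cldn6 and Cldn7 and by 0.15 to 0.37 in Tjp1, Cdh1, Ocln and Cldn3.

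Cldn4, Cldn6 and Cldn7 had the widest ranges of group means (3.24, 2.90 and 2.88), while Cldn3 (0.54) had the narrowest but for Tjp1. Cldn4, whose product seals the junction against sodium, read log2 6.99 and 7.22 in wild-type, 7.98 and 7.88 in the exon 2 mutant, 8.46 and 8.59 in the trap line and 10.41 and 10.27 in HPRTKO. No groups overlapped, and each step of that order passed the test, from adjusted p = 4.18e-06 between HPRTKO and trap to 0.00203 between trap and exon 2 mutant. Cldn7, a claudin that binds Epcam, read 5.94 and 6.11 in wild-type, 6.45 and 6.48 in the trap line, 7.03 and 6.89 in the exon 2 mutant and 8.93 and 8.89 in HPRTKO. All 3 steps passed here as well (adjusted p = 0.00393 or less), with the trap line and the exon 2 mutant in the opposite order to Cldn4.

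Cldn6, a claudin of early embryonic epithelia, split the groups differently. Its HPRTKO arrays read 9.49 and 9.56, and the other 6 lay between 6.54 and 7.04. The 3 lower groups overlapped. Their neighbours did not pass: trap minus wild-type was -0.10 (95% interval -0.42 to 0.22) and exon 2 mutant minus trap was -0.13 (-0.45 to 0.20), so a difference of either sign within these bounds is not excluded. Cldn3 was dim on all 4 of its probe sets (arrays between 6.30 and 7.09 on the brightest). There HPRTKO lay above wild-type by 0.37 ± 0.13 (SE), and the other 3 groups overlapped.

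Among the adherens and surface genes, Cdh1 read 10.58 and 10.65 in wild-type, 10.87 and 10.93 in the trap line, 11.61 and 11.49 in the exon 2 mutant and 11.85 and 11.80 in HPRTKO. The 4 groups did not overlap, and the exon 2 mutant sat much nearer to HPRTKO than to wild-type. Epcam, a cell surface glycoprotein gene of epithelia and stem cells, read 11.11 and 11.21 in wild-type, 11.14 and 11.06 in the trap line, 11.51 and 11.49 in the exon 2 mutant and 12.23 and 12.21 in HPRTKO. Wild-type and trap overlapped, and trap minus wild-type, -0.06 (95% interval -0.20 to 0.08), did not pass.

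For Ocln the arrays read 5.70 and 5.66 in wild-type, 5.28 and 5.82 in the trap line, 6.60 and 6.66 in the exon 2 mutant and 7.03 and 6.95 in HPRTKO. The trap arrays lay wide apart and on both sides of wild-type, and the step from the exon 2 mutant to HPRTKO, 0.36, did not pass (adjusted p = 0.0841). Tjp1 was bright and nearly level, from 10.66 to 11.10 over the 8 arrays. Dsp, encoding the protein that links desmosomes to keratin, read 7.46 and 7.60 in wild-type, 8.05 and 8.20 in the trap line, 8.78 and 8.62 in the exon 2 mutant and 9.60 and 9.43 in HPRTKO, with all steps past the threshold. Pkp2, the armadillo protein gene beside it, lay at 10.23 to 10.52 in the 3 other groups and at 11.18 and 11.15 in HPRTKO. Its exon 2 mutant arrays were the lowest of all on this probe set, its brightest, whereas those of Dsp lay above wild-type and trap.

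HPRTKO was compared with wild-type to see what differs with the Hprt mutation alone, as labelled. All 10 members were higher in HPRTKO, where 46.4% of the genes tested were called higher and 71.5% called in either direction (limma, adjusted p below 0.05). Of the 10, 7 were higher at least 2-fold, against 8.4% of all genes. Cldn4 was higher by 3.24 ± 0.10 (adjusted p = 1.99e-07), Cldn7 by 2.88 ± 0.08 (adjusted p = 1.22e-07) and Cldn6 by 2.68 ± 0.14 (adjusted p = 2.92e-06), all as log2 differences of 2 against 2 arrays. Dsp followed at 1.98 ± 0.09, and Ocln, Cdh1 and Epcam at 1.06 to 1.31. Pkp2 (0.70 ± 0.05) and Tjp1 (0.32 ± 0.05) differed less. The members' median was 1.26, and that of all genes tested 0.16.

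Beside these rises the feeder fibroblast markers were lower in 20 of 20 cases, by a median of -4.70 (range -7.23 to -1.68). Stem cell markers were higher in 8 of 10 and lower in 2, with a median of 0.42 and a range of -0.23 to 1.48. Cldn4, Cldn6, Cldn7 and Dsp thus lay above the range of the stem cell markers, and Tjp1 and Cldn3 lay below their median. Markers of other epithelial cell types were seen as well: of 10 primitive endoderm markers 6 were higher and 2 lower (median 0.35), and of 6 tested trophoblast markers 4 were higher and none lower (median 0.61), led by Tfap2c at 2.27. The trophoblast markers Cdx2, Elf5, Gata3 and Plac1 did not pass the filter. Pdgfra stood on both the fibroblast and the primitive endoderm list and counts in each throughout. It was lower here by -1.90 ± 0.10. The part of any of these cells in the members' levels was not tested. Scaling by cyclic loess moved the median of all genes in this comparison from 0.16 to 0.00 and the share of higher genes among those called from 64.9% to 49.9%. Relative to all genes the members lay from 0.16 for Tjp1 to 3.08 for Cldn4. The calls of Tjp1 and Cldn3 were lost under cyclic loess, which left 8 of 10, and that of Cldn3 also without either HPRTKO array or without the second wild-type array (adjusted p up to 0.160).

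**Figure D2:**
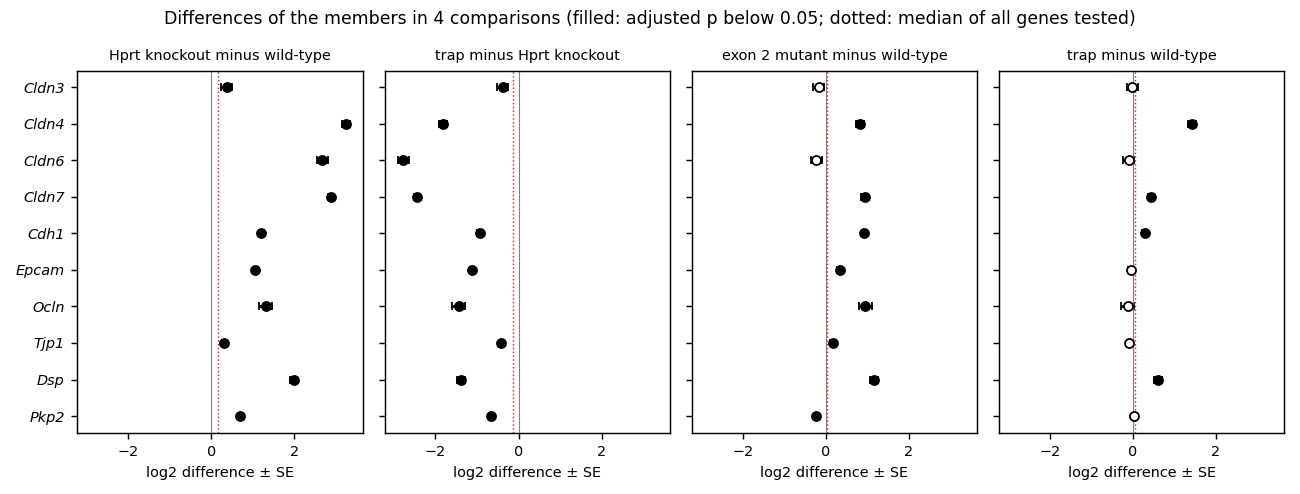
Log2 difference ± SE (horizontal axis) of each member in 4 comparisons, n = 2 against 2 arrays; filled points passed the test, open points did not, and the red dotted line is the median of all genes tested. All 10 members lie right of 0 for HPRTKO against wild-type and left of 0 for trap against HPRTKO, from -2.78 to -0.38 in the latter.

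The trap line against HPRTKO asks what differs with the trap in Gtf2i on the same Hprt label. It shares the HPRTKO arrays with the previous comparison, so the directions of both hang together. All 10 members were lower in the trap line, where 41.8% of genes were called lower and 68.4% in either direction, and 6 were lower at least 2-fold, against 4.95%. Cldn6 was lower by -2.78 ± 0.14 (adjusted p = 2.91e-06), Cldn7 by -2.44 ± 0.08, Cldn4 by -1.82 ± 0.10 and Ocln by -1.44 ± 0.16. Dsp (-1.39 ± 0.09), Epcam (-1.12 ± 0.06), Cdh1 (-0.93 ± 0.06), Pkp2 (-0.67 ± 0.05), Tjp1 (-0.42 ± 0.05) and Cldn3 (-0.38 ± 0.13) were lower too. Feeder markers were higher in 20 of 20 cases (median 4.28), stem cell markers were higher in 3 and lower in 5 of 10 (median -0.17), trophoblast markers were lower in 5 of 6 (median -0.45), and primitive endoderm markers were higher in 4 and lower in 6 of 10 (median -0.51). The median of all genes was -0.13 and went to 0.01 under cyclic loess, with 38.9% of called genes higher at first and 52.5% after. Relative to all genes the members lay between -2.65 and -0.26, and the call of Cldn3 was lost under cyclic loess and without the second HPRTKO array or either trap array.

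In the exon 2 mutant against wild-type, which addresses the loss of exon 2 from 1 copy of Gtf2i, most members were higher and the desmosome genes differed in direction. Of the 10 members 7 were higher and 1 lower, where 32.5% of genes were called higher, 23.1% lower and 55.5% in all. Dsp was higher by 1.17 ± 0.09 (adjusted p = 9.15e-05), the one member past 2-fold, as were 2.96% of all genes. Ocln (0.95 ± 0.16), Cldn7 (0.93 ± 0.08), Cdh1 (0.93 ± 0.06) and Cldn4 (0.82 ± 0.10) were higher by nearly as much. Epcam (0.34 ± 0.06) and Tjp1 (0.16 ± 0.05, adjusted p = 0.0295) were higher by less. Pkp2 was lower by -0.24 ± 0.05 (adjusted p = 0.00476), and Cldn3 (-0.17) and Cldn6 (-0.23) did not pass.

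Feeder markers were lower in 18 of 20 cases there (median -0.47), stem cell markers higher in 8 and lower in 1 of 10 (median 0.28, highest 0.80), trophoblast markers higher in 2 of 6 (median 0.10) and primitive endoderm markers lower in 8 of 10 (median -0.75). With both HPRTKO arrays left out of the fit, an alternative chosen after seeing the data, the count stayed at 8 of 10. Tjp1 lost its call under cyclic loess, without a filter, among the compared arrays alone, with the replicate block, and without the first exon 2 mutant array, either trap array or either wild-type array (adjusted p up to 0.325). Cldn3 became a call without the second exon 2 mutant array (-0.36, adjusted p = 0.0284), as did Cldn6 without the second wild-type array (-0.43, adjusted p = 0.0248). Taking the mean of a gene's probe sets also ended the calls of Epcam and Pkp2 and left 6 of 10. Cyclic loess changed the share of higher genes among those called from 58.4% to 47.8%.

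The trap line differed from wild-type in fewer members. Cldn4 was higher by 1.42 ± 0.10 (adjusted p = 7.77e-05), Dsp by 0.59 ± 0.09, Cldn7 by 0.44 ± 0.08 and Cdh1 by 0.28 ± 0.06 (adjusted p = 0.0116). These 4 of 10 compare with 26.5% of genes called higher, and 41.1% in either direction. None was lower, as 14.6% of genes were, while Cldn3, Cldn6, Epcam, Ocln, Tjp1 and Pkp2 lay between -0.13 and 0.03 and did not pass. Cldn4 was the one member past 2-fold, as were 1.56% of all genes. Feeder markers were higher in 4 and lower in 8 of 20 (median -0.12), stem cell markers higher in 6 of 10 with none lower (median 0.23), trophoblast markers higher in 2 of 6 and primitive endoderm markers higher in 3 and lower in 5 of 10. The call of Cdh1 was lost without the second trap array or the first wild-type array (adjusted p = 0.0703 and 0.0711). Without the second trap array Ocln became a call (-0.40, adjusted p = 0.0119). Under cyclic loess Tjp1 became a call, lower by -0.18 (adjusted p = 0.0242), and the share of higher genes among those called went from 64.6% to 54.2%, or to 69.7% with arrays centred on their medians.

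Both Gtf2i mutants were set against each other directly. The exon 2 mutant was higher than the trap line in 6 members and lower in 2, where 24.5% of genes were called higher, 24.7% lower and 49.2% in all. Ocln (1.08 ± 0.16), Cdh1 (0.65 ± 0.06), Dsp (0.57 ± 0.09), Cldn7 (0.49 ± 0.08), Epcam (0.40 ± 0.06) and Tjp1 (0.27 ± 0.05) were higher. Cldn4 (-0.60 ± 0.10) and Pkp2 (-0.27 ± 0.05) were lower. Pkp2 lost its call as the mean of probe sets (adjusted p = 0.185), and Cldn3 became a call without the second exon 2 mutant array (adjusted p = 0.0369). Feeder markers were higher in 4 and lower in 11 of 20 (median -0.19), stem cell markers higher in 2 and lower in 1 of 10, trophoblast markers higher in 1 and lower in 1 of 6, and primitive endoderm markers lower in 8 of 10 (median -0.41). Against HPRTKO the exon 2 mutant was lower in 9 of 10 members, where 36.3% of genes were called lower and 61.2% in all, from -2.90 ± 0.14 for Cldn6 to -0.15 ± 0.05 for Tjp1 (adjusted p = 0.0352), and Ocln did not pass. Feeder markers were higher in 20 of 20 (median 4.13), stem cell markers higher in 3 and lower in 5 of 10 (median -0.11), trophoblast markers lower in 3 of 6 (median -0.54), primitive endoderm markers higher in 2 and lower in 8 of 10 (median -1.03), and repressors of Cdh1 higher in 5 of 6. The part of these cells was not tested in either comparison. The call of Tjp1 was lost under 12 alternatives, among them leaving out any 1 array other than the first exon 2 mutant array (adjusted p up to 0.632), and Ocln became a call without either trap array (adjusted p = 0.00314). In that comparison cyclic loess moved the median of all genes from -0.09 to 0.02 and the share of higher genes among those called from 40.7% to 54.6%. The difference between both comparisons of a Gtf2i mutant line, exon 2 mutant minus wild-type less trap minus HPRTKO, passed in 9 members. All were higher, where 42.6% of genes were called higher and 69.7% in all. The 3 comparisons with wild-type share its arrays, and the 3 with HPRTKO share those.

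HPRTKO lay above wild-type past the threshold on 18 of the 19 member probe sets that passed the filter, tested within all probe sets. Of the 24564 probe sets tested, 42.9% were called higher there and 67.1% in either direction. Probe sets of the same gene are not independent of each other. The full order of the 4 groups was less stable: it matched that of the brightest probe set on the second one of Dsp and on 1 other of Pkp2, and differed on the other probe sets of Cldn3, Epcam, Ocln and Pkp2. On the 3 dimmer probe sets of Cldn3 the exon 2 mutant came next to HPRTKO, where on the brightest it was lowest, and the dimmest probe set of Dsp did not pass the filter. The second probe set of Dsp gave 1.91 against 1.98, and the 4 of Cldn3 gave 0.37 to 0.83, with the smallest value on the brightest. The 4 of Pkp2 gave 0.34 to 0.84, the highest on the dimmest, which is counted among the 18. Outside HPRTKO all arrays of that probe set lay below the filter level. It was tested only through HPRTKO, where it is high, so its fold depends on the array background. Ocln gave 0.60 on its second probe set against 1.31, and there the exon 2 mutant (6.31 and 6.22) lay above HPRTKO (5.80 and 6.08), the reverse of the brighter one. Epcam disagreed: its second probe set, of a class whose probes can match other sequences, gave 0.07 and did not pass (adjusted p = 0.681), against 1.06 on the bright one. The Cldn3 probe sets that gave 0.83 and 0.57 are of this class too. For Pkp2 in the exon 2 mutant, only the brightest of the 4 was lower past the threshold, and the second brightest gave -0.01 (adjusted p = 0.948).

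**Figure D3:**
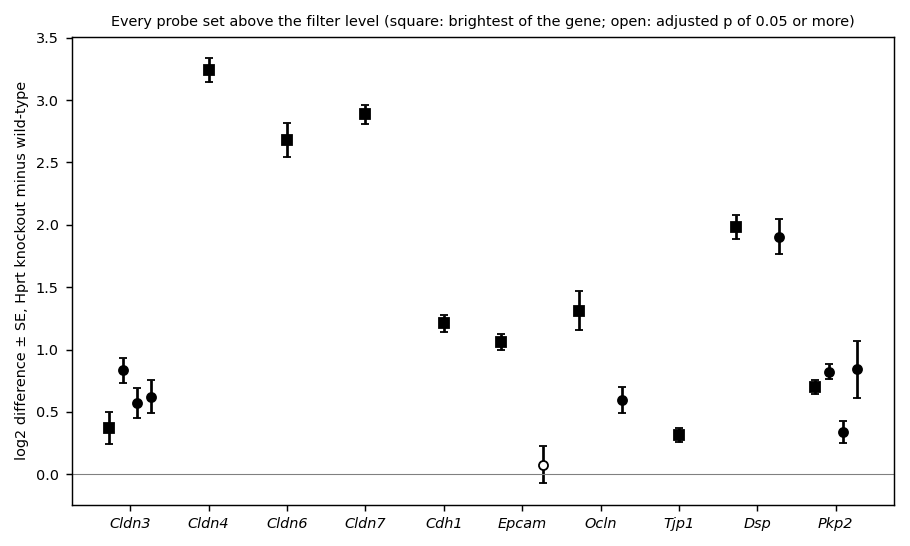
Log2 difference ± SE of HPRTKO minus wild-type (vertical axis) for each of the 19 member probe sets above the filter level, grouped by gene; squares mark the brightest probe set and the open point did not pass. Of these, 18 lie above 0 past the threshold, beside 42.9% of all probe sets tested, and the second probe set of Epcam lies at 0.07. The dimmest probe set of Pkp2, among the 18, was tested only through HPRTKO.

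Other genes of the junctions were taken from lists written from general knowledge. Of 20 tested tight junction partners 13 were higher and 3 lower in HPRTKO against wild-type (median 0.61, beside 0.16 for all genes), and 12 and 6 under cyclic loess. Those with the widest range were Marveld3, a relative of occludin (2.38 ± 0.09), the scaffold cingulin gene Cgn (1.95 ± 0.17) and the ZO family gene Tjp3 (1.78 ± 0.16). Marveld3, counted among the 13, was below the filter level in the 3 other groups and was tested only through HPRTKO, where it is high, so its fold depends on the array background. The fold of Tjp3 does so in part, since 1 of its wild-type arrays (4.88) lay below that level. In the trap line against HPRTKO 15 partners were lower and 4 higher, in the exon 2 mutant against wild-type 7 were higher and 6 lower, beside 32.5% and 23.1% of all genes, and in the trap line against wild-type 9 were higher and 4 lower, beside 26.5% and 14.6%. The list counts below stand beside the same shares of all genes. In HPRTKO against wild-type these were 46.4% called higher and 71.5% in either direction. In the trap line against HPRTKO they were 26.6% called higher and 41.8% lower.

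Of 17 other claudins 6 passed the filter. In HPRTKO against wild-type 3 of these were higher, beside 46.4% of all genes, and none lower (2 and 1 under cyclic loess). Cldn5, a claudin of blood vessels, was higher by 1.01 ± 0.21, Cldn2, a pore-forming claudin, by 0.65 ± 0.07 and Cldn9 by 0.29 ± 0.10. Cldn2 lay below the filter level in wild-type and the trap line and Cldn9 in wild-type, as did 1 wild-type array of Cldn5 (5.20). These 3 folds thus depend on background signal. Cldn12, with arrays from 9.33 to 9.99, did not pass (-0.13). In the trap line against HPRTKO 4 were lower, and 1 under cyclic loess. The exon 2 mutant against wild-type had 1 higher and 2 lower, and the trap line against wild-type 1 lower.

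Desmosome genes other than Dsp and Pkp2 were higher in HPRTKO against wild-type in 7 of 8 tested cases (median 0.62), and lower in 5 of 8 in the trap line against HPRTKO. The desmocollin gene Dsc2 (1.34 ± 0.18), the plakophilin gene Pkp3 (1.06 ± 0.07) and Perp, a p53 target needed for desmosomes (0.92 ± 0.09), had the widest range. Perp was as high in the trap line, which lay above wild-type by 1.04 ± 0.09, and lower in the exon 2 mutant (-0.72 ± 0.09). The list had 2 higher and 1 lower of 8 both in the exon 2 mutant and in the trap line against wild-type. Dsc2, counted among the 7, lay below the filter level in the 3 groups other than HPRTKO and was tested only through it.

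Adherens junction genes went in both directions. Of 12 tested, 5 were higher and 5 lower in HPRTKO against wild-type (median -0.05), and 3 and 6 under cyclic loess. Of all genes 46.4% were called higher there and 71.5% in either direction. The N-cadherin gene Cdh2, a cadherin of mesenchymal and neural cells, was lower by -2.33 ± 0.11, and the actin-linking vinculin gene Vcl by -2.74 ± 0.05, while Nectin4 was higher by 1.16 ± 0.13 and was tested only through HPRTKO, being below the filter level elsewhere. Cdh2 was higher in the trap line than in HPRTKO by 2.55 ± 0.11, beside the feeder markers. The list had 4 higher and 4 lower in the trap line against HPRTKO, 6 and 4 under cyclic loess. It had 2 and 5 in the exon 2 mutant, and 2 and 3 in the trap line, against wild-type.

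Epithelial regulators and surface protein genes were mostly higher in HPRTKO than in wild-type. Of 14 tested, 13 were higher and 1 lower in HPRTKO against wild-type (median 1.04), 1 was higher and 11 lower in the trap line against HPRTKO (median -0.85), and 10 were higher and 1 lower in the exon 2 mutant against wild-type (median 0.45). In the trap line against wild-type 8 were higher and 1 lower. Prss8 and Ovol2 (1.19 in HPRTKO against wild-type) are among the 13 and were tested only through HPRTKO, being below the filter level in the other 3 groups. Esrp1, a splicing factor of epithelial transcripts, was higher than in wild-type by 2.38 ± 0.07 in HPRTKO, 1.88 ± 0.07 in the exon 2 mutant and 1.55 ± 0.07 in the trap line. The membrane protease gene Prss8 was higher in HPRTKO by 2.76 ± 0.12, and Ap1m2, an adaptor of sorting in epithelial cells, by 2.33 ± 0.10.

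**Figure D4:**
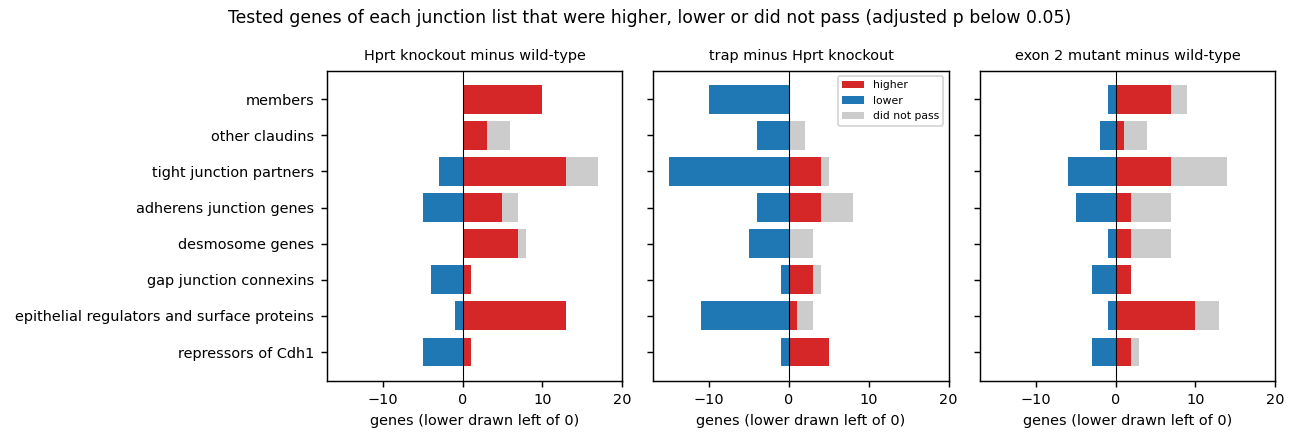
Number of tested genes (horizontal axis) of the 10 members and of each junction list that were higher (right of 0), lower (left of 0) or did not pass (grey) in 3 comparisons. For HPRTKO minus wild-type the called members and desmosome genes all lie right of 0, as do 13 of 14 epithelial regulators, and the adherens junction genes split 5 to 5.

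The repressors of Cdh1, several of which bind E-boxes of the form shown above, were lowest in HPRTKO in 5 of 6 cases. The share of all genes with their lowest arrays in HPRTKO is not given here, so this count cannot be weighed against it. Snai1 read 6.96 and 6.79 in wild-type, 5.76 and 5.64 in the exon 2 mutant, 6.25 and 6.06 in the trap line and 4.85 and 4.91, below the filter level, in HPRTKO. Snai2 read 9.90 and 9.97, 10.99 and 10.89, 10.61 and 10.54, and 6.88 and 7.16 in the same order. Zeb1 lay between 10.26 and 10.57 outside HPRTKO and at 8.77 and 8.58 in it. For each the HPRTKO arrays were the lowest, without overlap. In HPRTKO against wild-type, where 71.5% of genes were called and 46.4% were higher, 5 of 6 were lower. These were Snai2 (-2.92 ± 0.09), Zeb2 (-2.61 ± 0.08), Twist1 (-2.40 ± 0.09), Snai1 (-2.00 ± 0.09) and Zeb1 (-1.87 ± 0.07). Tcf3, which encodes an E protein, was higher (0.39 ± 0.06, a call lost under cyclic loess). The same 5 were higher in the trap line than in HPRTKO, by 1.28 to 3.56, where 26.6% of genes were called higher. Tcf3 was lower there by -0.29, a call also lost under cyclic loess. Fibroblasts express several of these genes, and the feeder markers moved with them by medians of -4.70 and 4.28. Their part was not tested.

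In the exon 2 mutant, where the feeder median was -0.47, the repressors split against wild-type. Snai1 (-1.18 ± 0.09), Twist1 (-0.79 ± 0.09) and Zeb1 (-0.23 ± 0.07) were lower, Snai2 (1.01 ± 0.09) and Tcf3 (0.35 ± 0.06) were higher, and Zeb2 did not pass (adjusted p = 0.980). In the trap line Snai2 was higher (0.64 ± 0.09) and Snai1 lower (-0.72 ± 0.09), and the other 4 did not pass.

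**Figure D5:**
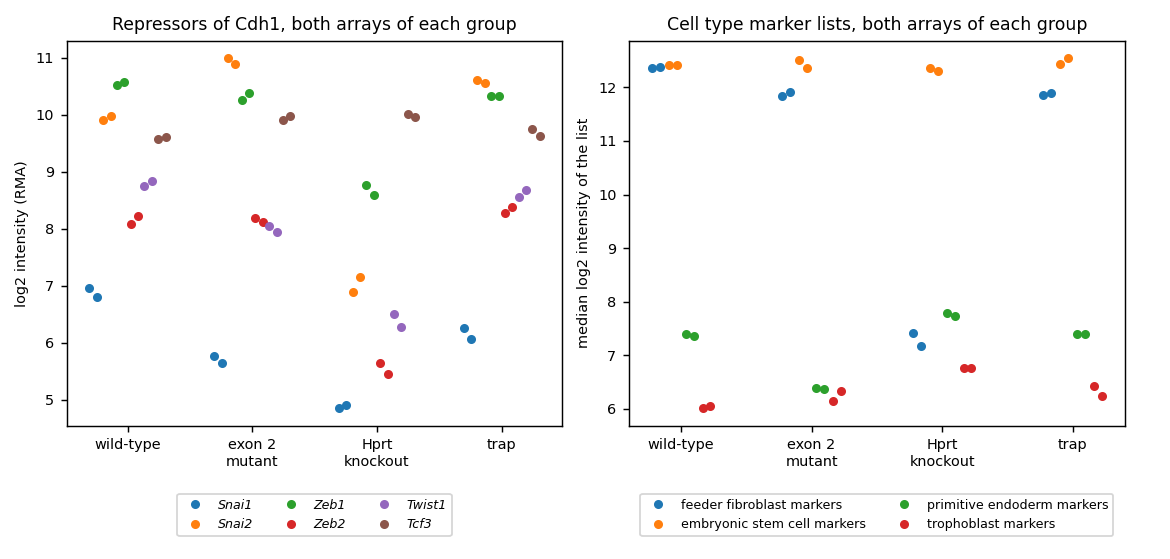
Left, log2 RMA intensity of the 6 repressors of Cdh1 on both arrays of each group; right, median log2 intensity of 4 lists of cell type markers on both arrays of each group. In HPRTKO the feeder fibroblast list (7.41 and 7.17) is at its lowest, as are 5 of the 6 repressors, a count given without the share of all genes. The median of the stem cell list lies between 12.30 and 12.54 on all 8 arrays, although 8 of its 10 genes were higher in HPRTKO than in wild-type.

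Among all genes tested, those nearest to a member in the shape of their 4 group means were found by the root mean square difference of centred means. Nearest to Cldn6 were Prss8 (0.10) and Plet1 (0.14), to Cldn7 Fgd5 (0.12) and Pim2 (0.14), and to Cldn4 Prom1 (0.18) and Cpm (0.25). Cdh1 lay nearest to Cdpf1 (0.02), Epcam to Clpb (0.01), Ocln to Fam161a (0.04) and Dsp to Acacb (0.03). This likeness rests on 4 group means only, and no member was among the 2 genes nearest to another. Between members, Cldn3 and Pkp2 (0.15) and Cldn3 and Tjp1 (0.17) were the closest pairs, then Cdh1 and Ocln (0.20), and Cldn4 and Tjp1 (1.09) the farthest.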

How the data were processed

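Log2 intensities of 45101 probe sets on 8 Affymetrix arrays were used as deposited. The authors made these log2 values with RMA, per the submitters' processing notes, which subtracts background, normalizes arrays by quantiles and summarises probes. No source used here gives its version. Quantile normalization hides a shift of most genes. Folds of dim probe sets can be compressed in such array values. Genes were named from the platform annotation, and each was represented by its brightest probe set with a single symbol. Genes exceeding an array's 40th percentile on 2 or more of the 8 arrays were tested, which left 13819 of 18193 genes and all 10 members. Group means (4) were estimated from the 8 arrays together with limma 3.58.1 in R 4.3.3 (4 residual degrees of freedom, 6.86 after moderation). The fitting script was checked beforehand on simulated data. P-values are two-sided and Benjamini-Hochberg adjusted over all genes within a comparison and called below 0.05. With 2 arrays a side, the smallest exact permutation p is 0.333. Other probe sets were tested in the same model over all probe sets. Alternatives were another scaling, filter, probe set rule or fit, a replicate block, and leaving out each array. Members and lists were chosen with earlier results of these data known. All members were named, up to 3 genes with the widest range per junction list, all repressors of Cdh1, and the 2 genes nearest to a member whose group means span more than log2 1. Tfap2c, Lum, Ovol2, Cldn9, Pdgfra and the stem cell markers were named in addition after their values were seen.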

Additional observations from a re-analysis of the deposited data

Results flagged for a closer look

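Exon 2 mutant minus wild-type differed from trap minus HPRTKO in 9 of 10 members, by a test of the difference itself in limma. Both compare lines, so the part of either mutation cannot be told apart from the line and its feeder material. Of all genes tested 69.7% passed and 42.6% were higher (61.2% of those that passed, and 48.1% with cyclic loess, where the all-gene median went from 0.16 to -0.03). The difference between both comparisons was log2 3.38 ± 0.11 for Cldn7, 2.64 ± 0.13 for Cldn4, 2.56 ± 0.13 for Dsp, 2.55 ± 0.19 for Cldn6 and 2.39 ± 0.22 for Ocln. It was 1.86 ± 0.09 for Cdh1, 1.46 ± 0.08 for Epcam, 0.58 ± 0.07 for Tjp1 and 0.43 ± 0.07 for Pkp2, which lost its call under cyclic loess (0.17, adjusted p = 0.0566). Cldn4, Cldn7, Cdh1, Epcam, Ocln, Tjp1 and Dsp were higher in the exon 2 mutant than in wild-type and lower in the trap line than in HPRTKO. Pkp2 was lower in both comparisons, and Cldn6 passed only in trap against HPRTKO. The difference of Cldn3, 0.21, did not pass (adjusted p = 0.323), and became a call without the first exon 2 mutant array (0.40, adjusted p = 0.0337) and as the mean of its probe sets (0.74, adjusted p = 0.00129), of which the 3 dimmer ones passed (0.80 to 1.00). Some of these dimmer Cldn3 probe sets are of the class whose probes can match other sequences. Over the alternatives 8 to 10 members passed. The HPRTKO arrays enter each of these values, and the feeder markers differed in the same test in 20 of 20 cases, by a median of -4.85. Their part was not tested.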

How the results depend on the processing

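Of 70 member differences (10 members in 7 comparisons) 58 passed. Over 18 other settings these gave 997 values, of which 36 lost the call and none changed sign, and 10 values of the other 12 differences gained one. The lost calls were of Tjp1, Cldn3, Pkp2, Epcam and Cdh1. Counts of members past the threshold stayed within 1.5 times, at 8 to 10 for HPRTKO against wild-type, 9 to 10 for trap against HPRTKO, 6 to 9 for the exon 2 mutant and 3 to 5 for the trap line against wild-type. Signs changed only where the difference had not passed, and the cause was not tested. Pkp2 in the trap line against wild-type was -0.042 under cyclic loess and -0.028 as the mean of probe sets, and Ocln there was 0.051 as that mean. Cldn3 was 0.015 there with arrays centred on the median. As the mean of probe sets it was 0.081 for the exon 2 mutant against wild-type and 0.14 for the exon 2 mutant against trap. Leaving out each array in turn, the trap line against wild-type ran from -0.10 to 0.071 for Cldn3, -0.30 to 0.10 for Cldn6 and -0.40 to 0.14 for Ocln, and Cldn3 from -0.36 to 0.014 for the exon 2 mutant against wild-type and from -0.34 to 0.029 against trap. With the replicate block the exon 2 mutant against wild-type had 7 members past the threshold and HPRTKO against wild-type 10. Deviations of same-numbered arrays had no common sign (r = -0.28 to 0.18 between groups), so no pairing by number was seen. What these correlations reflect was not tested. Where 1 array was left in a group, it was assumed to vary like the other groups. Probe sets near the filter level, as for Cldn3 and Ocln, limit what signal over background can show.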

Other observations

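Connexin genes, whose products form gap junctions between cells, went in both directions. Of 5 tested, 1 was higher and 4 lower in HPRTKO against wild-type (median -0.93). Of all genes 46.4% were called higher there and 71.5% in either direction. In the trap line against HPRTKO 3 were higher and 1 lower, beside 26.6% and 41.8% of all genes. Against wild-type the exon 2 mutant had 2 higher with 3 lower (1 with 3 under cyclic loess), beside 32.5% and 23.1%. The trap line against wild-type had 1 higher with 2 lower (1 with 4 under cyclic loess), beside 26.5% and 14.6%. Gjb2, a connexin of many epithelia, had its highest level in wild-type. It was lower by -2.80 ± 0.12 in HPRTKO, by -2.68 ± 0.12 in the exon 2 mutant and by -3.24 ± 0.12 in the trap line (adjusted p = 1.36e-05 or less). In HPRTKO and the trap line it lay below the filter level, as did 1 exon 2 mutant array (5.07, beside 5.46 on the other). All these folds thus depend on background signal. Gjc1 was lower by -0.93 ± 0.06 in HPRTKO against wild-type, and Gja4 by -1.14 ± 0.20, a fold that depends on background too, since Gja4 was above the filter level in wild-type only. Markers of the feeder layer were lower there by a median of -4.70, and their part was not tested.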
